A study of Saccharomyces cerevisiae with 6 samples.

Results

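Trehalose synthesis and breakdown in budding yeast was followed through 10 genes, chosen by name and function, with earlier results of these data known. They were 4 genes of the trehalose synthase complex (TPS1, TPS2, TPS3 and TSL1), 3 trehalase genes (NTH1, NTH2 and ATH1) and 3 genes that supply the precursors (PGM1, PGM2 and UGP1). All 10 were among the 5917 rows of the deposited table, and each stood at 1 TPM (transcripts per 1000000 transcripts, a unit corrected for gene length) or more in all 6 libraries, the lowest value being 1.3 TPM.

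The libraries came from log-phase Saccharomyces cerevisiae grown at 30 °C in synthetic defined medium and treated for 60 min with 20 uM edelfosine, an alkyl-lysophospholipid analogue that enters cell membranes, or with its vehicle, 0.095% ethanol. Each group held 3 libraries of poly(A) RNA, which the labels call biological replicates. Replicates 1 and 2 of each group were of strain W303 and replicate 3 was of strain BY4741, both common laboratory strains, so strain and replicate 3 cannot be told apart. The comparison of drug with vehicle asks how the transcript levels of these genes changed within 60 min of treatment.

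Trehalose is a disaccharide of glucose that yeast uses as a reserve carbohydrate and as a protectant of proteins and membranes under stress. It is made from UDP-glucose and glucose 6-phosphate: the synthase Tps1 joins them into trehalose 6-phosphate, the phosphatase Tps2 removes the phosphate, and Tps3 and Tsl1 are the regulatory subunits of the same complex. Trehalases split trehalose back into glucose, and synthesis and breakdown genes are both known to be transcribed under stress in this yeast.

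The files gave TPM without read counts, so sequencing depth is unknown and no counting interval could be given. Ribosomal protein genes made up 51.6% to 54.8% of the TPM of the vehicle libraries and 10.5% to 17.1% of that of the edelfosine libraries, and without rescaling the median gene rose by 0.55 on the log2 scale. Changes are therefore given after TMM scaling, as log2(scaled TPM + 1), from limma with terms for treatment and strain, and a gene is called where its Benjamini-Hochberg adjusted p over 5707 tested genes was under 0.05. After scaling the median gene changed by 0.0088, so a change below is relative to the typical gene. In bulk RNA, fewer cells of a type and less RNA per cell cannot be told apart. MET17, LEU2 and URA3, which BY4741 lacks, were at or below 0.0868 TPM in both BY4741 libraries and at 32.9 TPM or more in all W303 libraries. Edelfosine library 1 stood nearer to the vehicle libraries (Pearson correlation of log2 values across genes 0.868 to 0.876) than edelfosine libraries 2 and 3 did (0.787 to 0.865).

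After 60 min of edelfosine, transcripts of 7 of the 10 trehalose genes rose, those of 1 fell, and 2 were not called. The genes that rose were TPS1, TSL1, all 3 trehalases, PGM2 and UGP1. The gene that fell was PGM1. Over all genes tested 27.3% were called higher and 27.3% lower. The median log2 change of the 10 genes was 2.17, beside 0.0088 over all genes tested. The scaled values of the 2 groups did not overlap for 6 genes that were higher and 1 that was lower, beside 30.3% and 31.3% of all genes tested. With TPM as deposited, without rescaling, 9 of the 10 genes were called higher and 1 lower, when 2837 of all genes were called higher and 760 lower, against 1557 and 1557 after scaling. Leaving out edelfosine library 1 also gave 9 higher and 1 lower, when 1682 of all genes were called higher and 1674 lower.

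**Figure D1:**
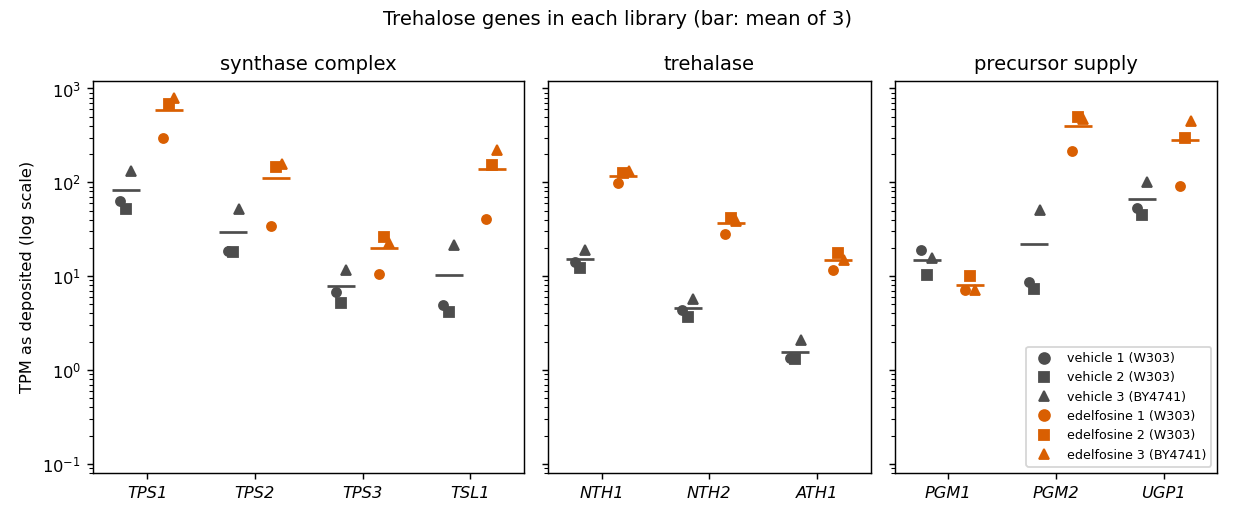
TPM of the 10 genes in each of the 6 libraries, on a log scale, by role; symbols mark the replicate, grey is vehicle, orange is edelfosine and each bar is the mean of 3 libraries. The orange points lie above the grey ones for TPS1, TSL1, the 3 trehalases and PGM2, overlap them for TPS2, TPS3 and UGP1, and lie below them for PGM1.

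The plot of TPM by library shows that the groups separated for 7 genes on the deposited scale and that the orange circle, edelfosine library 1, was the lowest of its group for all of the genes except PGM1. The grey triangle, the BY4741 vehicle library, was the highest of its group for all except PGM1.

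TPS1 (YBR126C), on the minus strand of chromosome II at 488905 to 490392 of the R64 genome, encodes trehalose 6-phosphate synthase. Its transcript was at 63.0, 51.6 and 131 TPM in vehicle libraries 1, 2 and 3 and at 295, 686 and 785 TPM in edelfosine libraries 1, 2 and 3. All 3 edelfosine values exceeded the highest vehicle value. The fitted log2 change was 2.23 ± 0.31 (SE, n = 3 per group; limma adjusted p = 0.00201), a 4.68-fold rise, and 3.1% of the genes tested rose more. TPS1 moved from place 953 among the 5917 rows by mean TPM with vehicle to place 289 with edelfosine.

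TPS2 (YDR074W; chromosome IV, 593893 to 596583, plus strand) encodes trehalose 6-phosphate phosphatase. It was at 18.4, 18.1 and 51.9 TPM with vehicle and at 34.2, 145 and 156 TPM with edelfosine. The groups overlapped, because edelfosine library 1 lay below the BY4741 vehicle library. Its log2 change of 1.19 ± 0.49 did not pass (limma adjusted p = 0.0779), with a 95% interval from 0.022 to 2.37. Without edelfosine library 1 the change was 1.77 and passed (limma adjusted p = 0.000739), and with TPM as deposited it was 1.79 (limma adjusted p = 0.0122).

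The regulatory subunits differed in their values. TPS3 (YMR261C; chromosome XIII, 790205 to 793369, minus strand) was at 6.70, 5.18 and 11.7 TPM with vehicle and at 10.4, 26.2 and 22.5 TPM with edelfosine. Here too the lowest edelfosine value lay within the vehicle range, and the log2 change of 0.64 ± 0.31 was not called (limma adjusted p = 0.126; 95% interval from -0.11 to 1.40). It was called without edelfosine library 1 (0.97, limma adjusted p = 0.00533) and with TPM as deposited (1.20, limma adjusted p = 0.0164). TSL1 (YML100W; chromosome XIII, 70624 to 73920, plus strand) was at 4.97, 4.10 and 21.7 TPM with vehicle and at 40.6, 152 and 219 TPM with edelfosine. The lowest edelfosine library was above the highest vehicle library. TSL1 rose by a log2 change of 3.10 ± 0.45 (limma adjusted p = 0.00225), or 8.57-fold, and 1.52% of the genes tested rose more.

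The ratio of TSL1 to TPS3 within a library, which does not depend on scaling, was 0.742, 0.790 and 1.85 with vehicle and 3.90, 5.80 and 9.71 with edelfosine. In the W303 vehicle libraries TPS3 was therefore the more abundant regulatory subunit transcript, and in all 3 edelfosine libraries TSL1 was. The ratio was 5.87-fold higher with edelfosine (exact two-sided permutation p = 0.1, the smallest that 3 against 3 allows; 0.14 after adjustment over the 7 ratios tested). The coding sequences of TPS3 and TSL1 are 67.2% identical over aligned bases, gaps left out, and no stretch of 31 bases is shared between them. TPS1 held 60.5% to 67.7% of the summed TPM of the 4 synthase genes with vehicle and 66.4% to 77.6% with edelfosine. TPS2 held 19.7% to 24.0% of the sum with vehicle and 9.0% to 14.3% with edelfosine, with no overlap between the groups.

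The bases upstream of TPS1 and TSL1, the complex members called higher, are shown because they carry several copies of AGGGG, the core of the stress response element that the yeast factors Msn2 and Msn4 bind. Sequences are from the RefSeq R64 genome, 5′ to 3′ on the strand of the gene. Capitals mark every match, on either strand, to any of these motifs. Besides AGGGG, the motif AGGGAT is the core of the post-diauxic shift element, and GAANNTTC is a facing pair of heat shock element units. A match on the other strand reads as the reverse complement, CCCCT in the case of the stress response element. Each stretch shown here and below was chosen as the 300 bases with the most matches outside annotated genes. It had to lie within 600 bases of the start codon and end at least 101 bases before it. The TPS1 stretch is chrII:490493-490792, minus strand, and the TSL1 stretch is chrXIII:70224-70523, plus strand, and both run from 400 to 101 bases before the start codon.
TPS1: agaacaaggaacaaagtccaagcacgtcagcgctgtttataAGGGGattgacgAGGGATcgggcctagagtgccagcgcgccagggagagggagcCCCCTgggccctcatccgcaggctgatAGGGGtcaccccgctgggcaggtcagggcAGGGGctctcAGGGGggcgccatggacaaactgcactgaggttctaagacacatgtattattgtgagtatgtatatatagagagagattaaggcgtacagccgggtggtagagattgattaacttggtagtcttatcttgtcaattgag
TSL1: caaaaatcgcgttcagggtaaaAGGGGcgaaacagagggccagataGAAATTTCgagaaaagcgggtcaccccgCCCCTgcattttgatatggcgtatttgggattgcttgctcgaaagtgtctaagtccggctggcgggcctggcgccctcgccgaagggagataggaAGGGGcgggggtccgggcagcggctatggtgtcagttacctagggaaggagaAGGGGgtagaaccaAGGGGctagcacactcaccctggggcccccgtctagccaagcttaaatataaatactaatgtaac
The TPS1 stretch holds 5 matches to AGGGG and 1 to AGGGAT. The TSL1 stretch holds 5 matches to AGGGG, of which 3 lie outside other annotated genes, and 1 to the heat shock pair, which lies inside one.

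All 3 trehalase genes rose, by nearly the same amount when 1 TPM was added before the log. With 5 TPM added the log2 changes were 2.08 for NTH1, 1.69 for NTH2 and 1.28 for ATH1. With 0.1 TPM added they were 2.35, 2.37 and 2.57. NTH1 (YDR001C; chromosome IV, 450220 to 452475, minus strand) encodes the main neutral trehalase of the cytosol. Its transcript was at 14.3, 12.3 and 19.2 TPM with vehicle and at 97.1, 126 and 131 TPM with edelfosine. Every edelfosine library was far above every vehicle library. NTH1 rose by a log2 change of 2.29 ± 0.16 (limma adjusted p = 0.0003), or 4.91-fold.

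NTH2 (YBR001C; chromosome II, 238941 to 241283, minus strand), its paralogue, was at 4.35, 3.65 and 5.76 TPM with vehicle and at 28.3, 42.2 and 39.0 TPM with edelfosine. ATH1 (YPR026W; chromosome XVI, 615379 to 619014, plus strand), the acid trehalase that acts on trehalose outside the cytosol, was at 1.34, 1.30 and 2.08 TPM with vehicle and at 11.7, 17.6 and 14.7 TPM with edelfosine. Neither gene's groups overlapped. The log2 changes were 2.20 ± 0.18 for NTH2 (limma adjusted p = 0.000526) and 2.13 ± 0.18 for ATH1 (limma adjusted p = 0.000598). The SEs of the 3 trehalase genes, from 0.16 to 0.18, were the smallest of the 10 genes.

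The trehalases kept nearly the same proportions in every library. NTH1 held 67.9% to 71.6% of the summed trehalase TPM, NTH2 20.6% to 22.6% and ATH1 6.67% to 9.47%, over all 6 libraries. The NTH1 to NTH2 ratio was 3.29, 3.36 and 3.33 with vehicle and 3.44, 3.00 and 3.35 with edelfosine, and its change of -0.03 on the log2 scale was smaller than the spread among the edelfosine libraries (SD 0.10; exact two-sided permutation p = 0.9). The coding sequences of NTH1 and NTH2 are 72.4% identical over aligned bases, gaps left out. They share 3 stretches of 31 bases, so a few reads could be assigned to either. The NTH1 to ATH1 ratio was 10.7, 9.43 and 9.24 with vehicle and 8.32, 7.17 and 8.86 with edelfosine, a log2 difference of -0.27 (exact two-sided permutation p = 0.1, adjusted 0.14), which became 0.28 when 1 TPM was added to each gene before the ratio was taken.

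Upstream of the paralogues NTH1 and NTH2 the matches differed, and the stretches are shown because the genes rose alike. They run from 400 to 101 bases before the start codon at chrIV:452576-452875 for NTH1 and chrII:241384-241683 for NTH2, both on the minus strand, with capitals as above.
NTH1: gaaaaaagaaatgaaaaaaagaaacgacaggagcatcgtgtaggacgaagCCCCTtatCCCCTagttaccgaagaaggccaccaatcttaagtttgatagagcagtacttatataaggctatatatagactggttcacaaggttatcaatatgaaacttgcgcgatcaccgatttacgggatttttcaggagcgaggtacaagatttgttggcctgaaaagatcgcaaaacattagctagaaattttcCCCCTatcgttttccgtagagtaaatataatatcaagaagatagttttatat
NTH2: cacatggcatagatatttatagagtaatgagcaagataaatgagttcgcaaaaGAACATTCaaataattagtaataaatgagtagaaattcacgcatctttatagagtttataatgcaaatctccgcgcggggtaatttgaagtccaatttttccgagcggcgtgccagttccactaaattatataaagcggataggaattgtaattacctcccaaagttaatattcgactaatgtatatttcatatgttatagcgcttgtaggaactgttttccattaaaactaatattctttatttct
NTH1 has 3 matches to AGGGG there. NTH2 has no match to AGGGG in the 600 bases before its start codon and 1 match to the heat shock pair.

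Of the genes that supply UDP-glucose, PGM2 rose more than any other of the 10 and PGM1 fell. Both encode phosphoglucomutase, which converts glucose 6-phosphate into glucose 1-phosphate, Pgm2 being the major isoenzyme. PGM2 (YMR105C; chromosome XIII, 475897 to 477606, minus strand) was at 8.56, 7.34 and 50.1 TPM with vehicle and at 215, 495.5 and 471 TPM with edelfosine. The BY4741 vehicle library was several-fold above both W303 vehicle libraries, and all edelfosine libraries were above it. The log2 change was 3.95 ± 0.45 (limma adjusted p = 0.00113), or 15.5-fold, and PGM2 took place 47 of 5707 by size of rise. Between same-numbered libraries, not taken as pairs, the scaled change was 3.94, 5.14 and 2.78 for numbers 1, 2 and 3. The fitted change was 4.54 without the BY4741 vehicle library and 4.56 without the BY4741 edelfosine library. Both fits rest on the W303 libraries, because the strain term absorbs the BY4741 library that is left.

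PGM1 (YKL127W; chromosome XI, 203541 to 205253, plus strand) was at 18.8, 10.4 and 15.6 TPM with vehicle and at 7.20, 10.01 and 7.12 TPM with edelfosine. On the deposited scale the groups were separated narrowly, since vehicle library 2 and edelfosine library 2 nearly met. The gene fell by 1.34 ± 0.21 on the log2 scale (limma adjusted p = 0.00298), and with TPM as deposited the change was -0.78 (limma adjusted p = 0.0355).

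UGP1 (YKL035W; chromosome XI, 369891 to 371390, plus strand) encodes UDP-glucose pyrophosphorylase, which makes UDP-glucose from glucose 1-phosphate. It was at 53.1, 44.4 and 100.6 TPM with vehicle and at 91.1, 297 and 449 TPM with edelfosine. Edelfosine library 1 lay below the BY4741 vehicle library, so the groups overlapped. Its log2 change was 1.27 ± 0.43 (limma adjusted p = 0.0436), and the call was lost in 9 of 19 alternatives, among them the W303 libraries alone (1.07, limma adjusted p = 0.158). It was also lost without any 1 of the vehicle libraries (limma adjusted p = 0.112, 0.12 and 0.18 without vehicle 1, 2 and 3). The same held without edelfosine library 3 (1.08, limma adjusted p = 0.146). Without vehicle 3 or edelfosine 3, the strain term absorbs the BY4741 library that is left. Those fits therefore repeat the comparison within W303 and are not separate checks. Without edelfosine library 1 the change of UGP1 was 1.82 (limma adjusted p = 0.000144).

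The PGM2 to PGM1 ratio was 0.455, 0.709 and 3.20 with vehicle and 29.9, 49.5 and 66.1 with edelfosine. PGM1 was thus the more abundant phosphoglucomutase transcript in both W303 vehicle libraries and PGM2 in the BY4741 vehicle library and in every edelfosine library. The ratio was 45.6-fold higher with edelfosine, on geometric means (exact two-sided permutation p = 0.1, adjusted 0.14). On the log2 scale this was 5.51, and it was 6.34 without the BY4741 vehicle library. The coding sequences of the pair are 72.8% identical over aligned bases, gaps left out, and share no stretch of 31 bases. On this measure UGP1, which encodes another enzyme, gave 61.6% with PGM1 and 59.6% with PGM2. UGP1 was 6.20, 6.04 and 2.01 times PGM2 with vehicle and 0.423, 0.599 and 0.955 times PGM2 with edelfosine, a 0.148-fold change (exact two-sided permutation p = 0.1, adjusted 0.14). PGM1 made up 9.4% to 23.4% of the summed TPM of the 3 precursor genes with vehicle and 0.768% to 2.30% with edelfosine. PGM2 made up 10.6% to 30.1% with vehicle and 50.8% to 68.6% with edelfosine.

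The stretches upstream of PGM1 and PGM2 are shown because these paralogues changed in opposite directions. That of PGM1 is chrXI:203141-203440, plus strand, from 400 to 101 bases before the start codon, and that of PGM2 is chrXIII:477717-478016, minus strand, from 410 to 111 bases before it.
PGM1: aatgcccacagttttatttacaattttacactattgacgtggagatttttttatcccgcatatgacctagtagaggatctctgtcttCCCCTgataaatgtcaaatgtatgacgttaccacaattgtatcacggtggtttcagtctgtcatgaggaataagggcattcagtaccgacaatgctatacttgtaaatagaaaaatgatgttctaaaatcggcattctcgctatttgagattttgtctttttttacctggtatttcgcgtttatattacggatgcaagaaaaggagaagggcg
PGM2: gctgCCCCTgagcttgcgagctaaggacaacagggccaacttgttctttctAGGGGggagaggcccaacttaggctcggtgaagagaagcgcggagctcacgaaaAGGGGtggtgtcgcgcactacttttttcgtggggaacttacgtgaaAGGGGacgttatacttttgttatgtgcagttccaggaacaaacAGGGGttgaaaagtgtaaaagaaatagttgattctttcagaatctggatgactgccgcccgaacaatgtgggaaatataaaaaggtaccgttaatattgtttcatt
The PGM1 stretch has 1 match to AGGGG and the PGM2 stretch has 5. In the whole 600 bases before the start codon PGM1 has 3 and PGM2 has 6. Whether the matches bear on the changes was not tested.

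**Figure D2:**
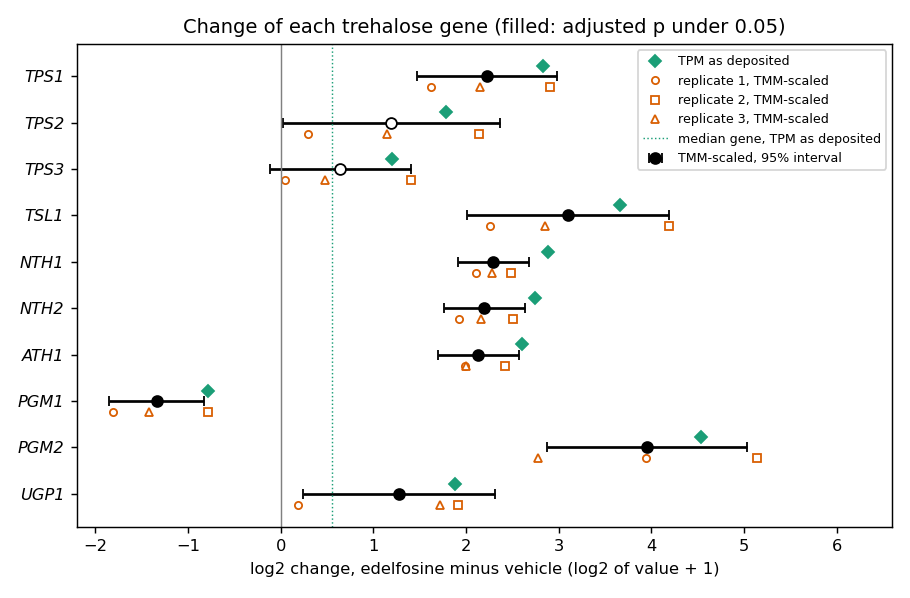
Log2 change of each gene, edelfosine minus vehicle: black circles are the limma estimate after TMM scaling with its 95% interval (filled where the adjusted p was under 0.05), orange symbols are the change within each replicate number, and green diamonds are TPM as deposited, whose median gene is the dotted line at 0.55. The trehalase estimates lie close together, from 2.13 to 2.29, with short intervals, while PGM2 is highest at 3.95 and PGM1 is the one gene below 0.

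The orange symbols in the plot of log2 changes are differences between same-numbered libraries, which were not taken as pairs. On this matching, replicate 2 gave the largest rise for each of the 9 genes with a positive estimate. Replicate 1 gave the smallest for all of these except PGM2, where BY4741 did. For the trehalases the change within a replicate ranged from 1.92 to 2.50, whereas for the synthase genes it ranged from 0.04 (TPS3, replicate 1) to 4.19 (TSL1, replicate 2).

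**Figure D3:**
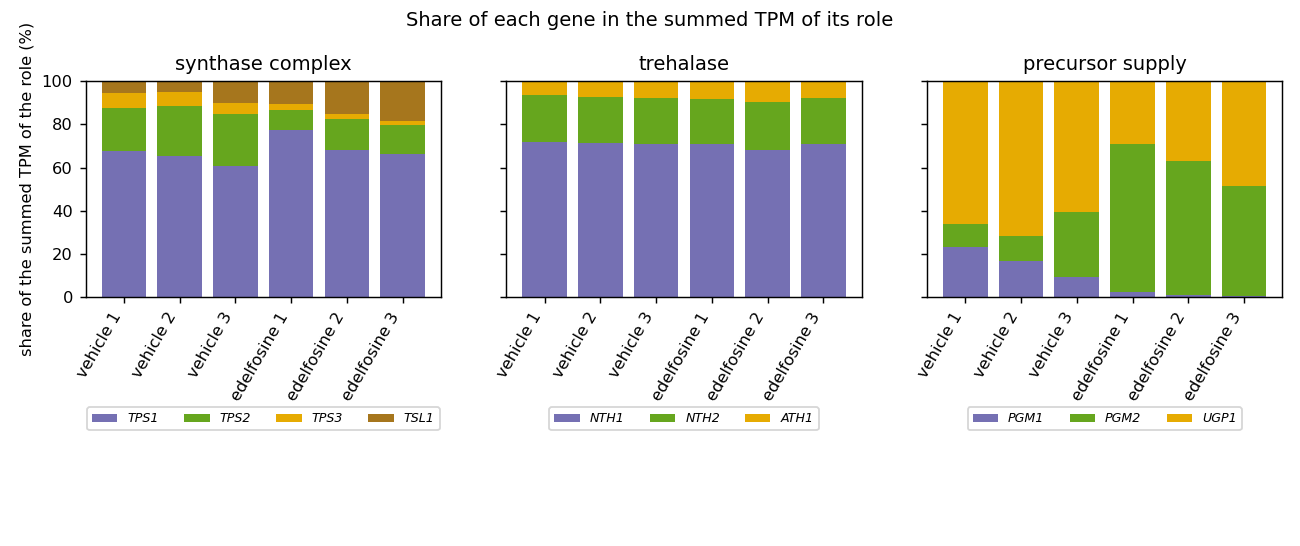
Share of each gene, in percent, in the summed TPM of the genes of its role, in each library (replicates 1 and 2 are W303, 3 is BY4741). The trehalase bars are nearly alike in all 6 libraries, TSL1 takes a larger part of the synthase bar with edelfosine than with vehicle (10.7% to 18.5% against 5.19% to 10.05%), and PGM2 in place of UGP1 holds the largest part of the precursor bar.

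Summed over the synthase genes, TPM was 93.0, 79.0 and 216 with vehicle and 380, 1009 and 1182 with edelfosine. Summed over the trehalases it was 20.0, 17.2 and 27.0 with vehicle and 137, 186 and 184 with edelfosine. Both sums were higher in every edelfosine library than in any vehicle library, and the bars of shares show how they were made up. The ratio of the sums, synthase over trehalase, was 4.65, 4.59 and 8.001 with vehicle and 2.77, 5.42 and 6.41 with edelfosine, which overlap. All 10 genes together made up 0.0158% to 0.041% of the TPM of the vehicle libraries and 0.083% to 0.229% of that of the edelfosine libraries.

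**Figure D4:**
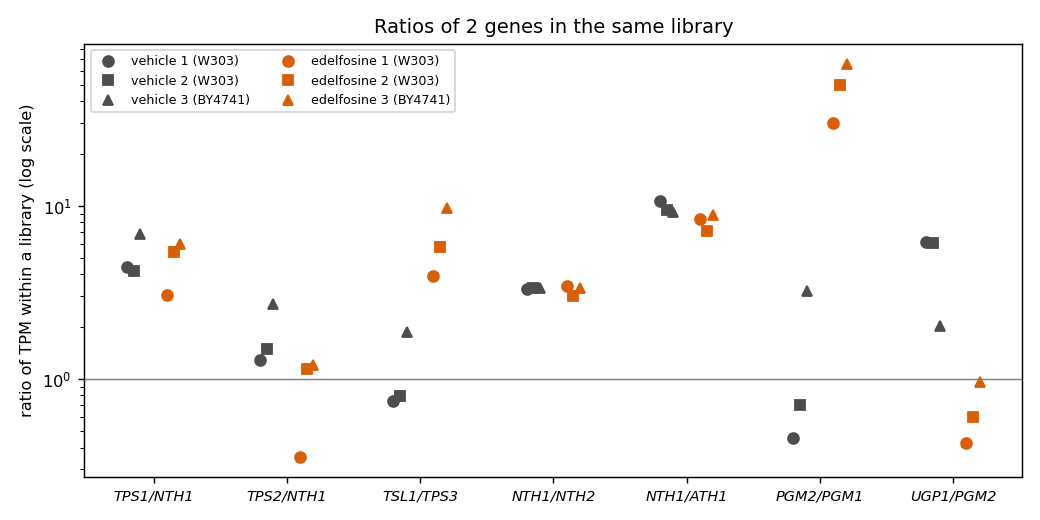
Ratio of the TPM of 2 genes within each library, on a log scale, with the line at 1; grey is vehicle, orange is edelfosine and symbols mark the replicate. PGM2/PGM1 lies between 0.455 and 3.20 with vehicle and between 29.9 and 66.1 with edelfosine, while NTH1/NTH2 stays between 3.00 and 3.44 throughout.

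Between pathway arms, the TPS1 to NTH1 ratio was 4.4, 4.21 and 6.82 with vehicle and 3.03, 5.42 and 6.01 with edelfosine. These values overlap, and the log2 difference of -0.12 was smaller than the SD within either group (0.38 and 0.53; exact two-sided permutation p = 0.8). Without edelfosine library 1 it was 0.19. The TPS2 to NTH1 ratio was 1.28, 1.48 and 2.71 with vehicle and 0.352, 1.14 and 1.20 with edelfosine. It was lower in every edelfosine library, by 1.14 on the log2 scale (exact two-sided permutation p = 0.1, adjusted 0.14), and the log2 difference was -0.56 without edelfosine library 1. In the plot of within-library ratios, 5 of the 7 ratios had groups that did not overlap, and none could pass a threshold of 0.05 in this design.

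By mean TPM the vehicle order was TPS1 (81.8 ± 42.8, SD, n = 3), UGP1, TPS2, PGM2, NTH1, PGM1, TSL1, TPS3, NTH2 and ATH1 (1.57 ± 0.438). Of neighbours in this order, only NTH2 and ATH1 had ranges that did not overlap. From PGM2 to TPS3 the order changed between libraries. With edelfosine the order was TPS1 (588 ± 259), PGM2 (394 ± 155), UGP1, TSL1, NTH1, TPS2, NTH2, TPS3, ATH1 and PGM1 (8.11 ± 1.65). Here NTH2 was separate from TPS3, and ATH1 from PGM1, while all other neighbours had overlapping ranges. TPS1 was first and UGP1 above TPS2 in all 6 libraries.

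No trehalose gene was called between the strains (limma adjusted p from 0.258 for TSL1 to 0.891 for PGM1), where 0.421% of all genes tested were called. The estimates, BY4741 minus W303, were nevertheless positive for all except PGM1 and were 1.70 on the log2 scale for TSL1, 1.46 for PGM2, 1.23 for TPS2 and 0.30 or less for each trehalase. No gene at all was called for a different drug response in the 2 strains (0% of 5707 tested, limma, 2 residual degrees of freedom, with 176 genes at an unadjusted p under 0.05). Among the 10 genes the largest such difference was that of PGM2, whose rise was 1.76 ± 0.72 smaller on the log2 scale in BY4741 and was not called (limma adjusted p = 1). With 1 BY4741 library per group, even a difference in drug response as large as that of PGM2 could not be called. The lack of calls therefore does not show that the strains responded alike.

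The genes whose profiles over the 6 libraries were most like that of TPS1, by Euclidean distance between mean-centred log2 values, were REC114 (0.394), a meiotic recombination gene, FUN19 (0.482), SDS24 (0.487), GID11 (0.509) and YGL081W (0.527). The 5 nearest to NTH1 were ALD2 (0.139), a cytosolic aldehyde dehydrogenase, ACH1 (0.153), which acts on acetyl-CoA and CoA transfer in mitochondria, NTH2 (0.185), ATG33 (0.231), a mitophagy gene, and YPR127W (0.235). ATH1 was the 8th nearest to NTH1 among all genes tested, whereas TPS1 was the 147th. Of the synthase genes, TPS2 was the 240th, TSL1 the 255th and TPS3 the 669th nearest to TPS1.

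Upstream of the start codon, AGGGG was found in the 600 bases before 9 of the 10 genes, NTH2 being the exception, and in 39.5% of the 5908 windows of all genes. At least 3 matches were found for 7 of the 10 genes and in 2.47% of all windows, and at least 5 for TPS1, TPS2, TSL1, PGM2 and UGP1 and in 0.339% of all windows. Counting only matches outside annotated genes, 5 of the 10 genes had at least 3 (1.88% of all windows) and 3 had at least 5 (0.203%), namely TPS1, TPS2 and PGM2. For UGP1 this left 1 of its 5 matches, and for PGM1 it left 1 of 3, the others lying inside annotated genes. At least 5 matches outside annotated genes were thus found for TPS1, TPS2 and PGM2. Of these, TPS1 and PGM2 were called higher, and TPS2 was not called (log2 change 1.19, 95% interval from 0.022 to 2.37). NTH2, with 0 matches, rose 4.58-fold. Whether the matches bear on the changes was not tested. AGGGAT was found for TPS1, TPS2, ATH1 and UGP1 (18.3% of all windows) and GAANNTTC for TSL1, NTH2 and ATH1 (22.8%). These matches are descriptions of the sequence, and binding was not measured.

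**Figure D5:**
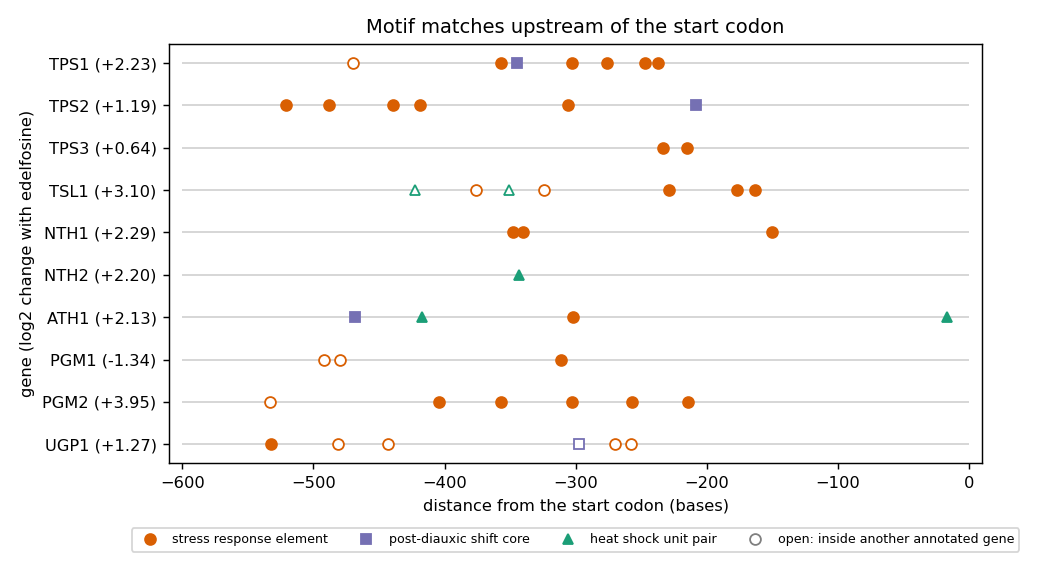
Position of each motif match in the 600 bases upstream of the start codon of the 10 genes, as distance in bases, with the fitted log2 change beside the name. Circles are AGGGG, squares AGGGAT and triangles GAANNTTC, on either strand, and open symbols lie inside another annotated gene; TPS1, TPS2 and PGM2 each have 5 filled circles and NTH2 has none.

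The map of matches shows that the filled AGGGG circles of TPS1, TSL1 and PGM2 lie between 161 and 406 bases upstream, and those of TPS2 between 304 and 523.

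Genes that feed or border the pathway were counted in the same fit, where 27.3% of all genes tested were called higher and 27.3% lower. Of 4 genes that phosphorylate glucose, and so supply glucose 6-phosphate, 3 rose and 1 fell. HXK1, a hexokinase, rose by 4.50 ± 0.30 on the log2 scale (limma adjusted p = 0.000288), GLK1, glucokinase, by 2.63 (limma adjusted p = 0.000773) and EMI2 by 1.30 (limma adjusted p = 0.0283). HXK2, the main hexokinase of growth on glucose, fell by 1.59 (limma adjusted p = 0.0225). The fall of HXK2 was not called with TPM as deposited (-0.98), nor the rise of EMI2 with ribosomal protein genes left out of the total (1.06).

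Glycogen metabolism, which draws on the same UDP-glucose, had 6 of 8 genes higher, none lower and 2 not called, with a median log2 change of 1.86, beside 27.3% higher, 27.3% lower and a median of 0.0088 over all genes tested. Those with the smallest adjusted p were GDB1, the debranching enzyme (3.43, limma adjusted p = 0.000658), GPH1, glycogen phosphorylase (3.66, limma adjusted p = 0.000772), SGA1, a glucoamylase (1.95, limma adjusted p = 0.00116), and GSY2, glycogen synthase (1.73, limma adjusted p = 0.00462). Breakdown and synthesis genes were therefore both among those that rose, as for trehalose. Of 7 other genes tied to UDP-glucose, 3 rose, 3 fell and 1 was not called, against the same 27.3% in each direction. ALG5, which moves glucose from UDP-glucose to dolichol phosphate, fell by 1.19 (limma adjusted p = 0.0031), and GSC2, a glucan synthase subunit, rose by 1.25 (limma adjusted p = 0.00361). FKS1 and KRE6 were the other genes of the list that fell (-1.18 and -0.87, limma adjusted p = 0.0178 and 0.0104). GSC2 was at 2.22 to 2.70 TPM with vehicle and FKS1 at 15.8 to 17.9 TPM. The galactose pathway genes GAL10 and GAL7 rose by 0.85 and 0.98 (limma adjusted p = 0.00434 and 0.00602). With vehicle they were only at 0.38 to 1.01 and 0.35 to 1.80 TPM, and the groups of GAL7 overlapped. With TPM as deposited 4 of the 7 genes rose and 1 fell, ALG5.

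Genes for regulators of the neutral trehalases, which are activated by protein kinase A and 14-3-3 proteins, had 7 of 8 higher and 1 lower, beside 27.3% higher and 27.3% lower over all genes tested. DCS2 and DCS1 rose by 4.64 and 2.51 (limma adjusted p = 0.00041 and 0.000607), Dcs1 being a scavenger decapping enzyme that has been described as an inhibitor of neutral trehalase. BCY1, the regulatory subunit of protein kinase A, rose by 1.45 (limma adjusted p = 0.00162). The gene that fell was TPK3, a catalytic subunit of the kinase (-1.04, limma adjusted p = 0.0127), named after its value was seen. With ribosomal protein genes left out of the total this count was 5 higher and 1 lower, beside 1091 higher and 1836 lower over all genes. With TPM as deposited it was 7 higher and 0 lower, beside 2837 higher and 760 lower over all genes.

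Of 5 genes for stress transcription regulators, 2 were called higher (27.3% over all genes tested), HSF1 (0.55, limma adjusted p = 0.0194) and RIM15 (0.49, limma adjusted p = 0.0309), and neither was with ribosomal protein genes left out of the total. GIS1 changed by 0.57 without being called (limma adjusted p = 0.0943), and MSN2 and MSN4, whose factors bind AGGGG, had log2 changes of -0.0044 and 0.0046 (limma adjusted p = 0.984 and 0.99). MAL11, an alpha-glucoside transporter that takes up trehalose, rose by 1.12 (limma adjusted p = 0.00748), and reads shared with other maltose transporter genes were not checked. The sequence relatives listed for the pathway were PGM3, named PRM15 in RefSeq, which rose by 0.88 (limma adjusted p = 0.00253), and YHL012W, related to UGP1, which was not called (-0.12, limma adjusted p = 0.471).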

How the data were processed

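The deposited table held TPM values per gene, made by the authors with kallisto and sleuth per the submitters' processing notes; tool versions and the transcript set used are not stated in the labels or headers. Its values sum to 1000000 in each library, and all columns were used. Genes with at least 1 TPM in at least 3 of 6 libraries were tested (5707 of 5917). TPM were scaled by TMM (30% and 5% trimmed), and log2(value + 1) was fitted in limma 3.58.1 (R 4.3.3) with treatment and strain terms, a mean-variance trend and Benjamini-Hochberg adjustment. Adding 1 TPM understates the change of genes with low values. Within-library ratios of 7 gene pairs were compared by exact permutation. The code was tested on simulated data. The trehalose genes and the lists beside them were chosen with earlier results of these data known. Values are given for all 10 trehalose genes, up to 4 genes per list with the smallest adjusted p, some further list genes, and the 5 profiles nearest to TPS1 and NTH1. The values of 1 list gene are not reported here. The list genes were refitted under other scalings as an alternative chosen after seeing the data. Gene positions, the 600 upstream bases and names came from the RefSeq R64 annotation, in which 5911 rows matched by systematic name; sharing of 31-base stretches was checked for the trehalose genes alone.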

Additional observations from a re-analysis of the deposited data

How the results depend on the processing

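TPS1, TSL1, NTH1, NTH2, ATH1 and PGM2 remained called higher and PGM1 lower in all 19 alternatives tried, with log2 changes of 1.91 to 2.83, 2.56 to 3.66, 2.07 to 2.88, 1.69 to 2.74, 1.28 to 2.60, 3.48 to 4.56 and -1.62 to -0.78. TPS2 and TPS3 were called in 3 and 2 of the 19, and UGP1 was not called in 9. The fits without vehicle 3, without edelfosine 3 and with W303 alone all rest on the same comparison within W303. Over all genes, 2837 were called higher and 760 lower with TPM as deposited, and 611 higher and 706 lower when tested against a fold of 1.5, which asks for a larger change. With 1 TPM added to each gene, the change of the log2 ratio NTH1/NTH2 was 0.139 and that of NTH1/ATH1 reversed to 0.278; ATH1 was near 1 TPM with vehicle. Leaving out 1 library at a time, 1084 to 1682 genes were called higher and 1098 to 1674 lower, and 6 to 9 trehalose genes higher and 1 lower. For UGP1 these fits ranged from 0.898 to 1.82.

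Same-numbered libraries deviated together with correlations of 0.332, 0.0518 and 0.51, and vehicle 2 correlated best with edelfosine 1 (0.32), so the numbers were not taken as pairs. The fit with a replicate block called 1488 genes higher and 1529 lower, and 8 trehalose genes higher, with TPS2 added (limma adjusted p = 0.0314).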
